A study of Mus musculus with 16 samples.

Results

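Transcripts of 39 genes of the p53 pathway and the BCL2 family were compared between C2C12 myotubes given electrical pulse stimulation (EPS, 4 libraries) and unstimulated control myotubes (4 libraries). The members are p53 itself, its regulators and targets, and genes of mitochondrial and receptor-driven apoptosis, picked by mouse gene symbol. All 39 were found among the 48432 gene identifiers of the table, and all 39 were among the 13987 genes that passed the filter on low counts. C2C12 is a mouse myoblast cell line whose cells fuse into contracting myotubes once serum is lowered. Both groups were differentiated for 5 days on gelatin in medium with horse serum. EPS cultures then received 6 ms pulses at 1 Hz and 2.75 V/mm, with the field reversed at 0.5 Hz, and control cultures received none; for how long is not stated in the labels. All libraries come from this 1 cell line. The labels do not call the 4 libraries of a group separate cultures, so the p-values below reflect the spread among libraries and that spread may be technical.

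The transcription factor p53 is held low in resting cells by the ubiquitin ligase MDM2 and its partner MDM4, and accumulates under DNA damage and other stresses. It then switches on genes that stop the cell cycle, such as Cdkn1a, genes that act in repair and metabolism, and genes that favour cell death. The BCL2 family controls whether mitochondria release cytochrome c: BCL2, BCL-XL (Bcl2l1) and MCL1 protect the outer membrane, BAX and BAK1 perforate it, and BH3-only proteins such as BIM (Bcl2l11), PUMA (Bbc3) and NOXA (Pmaip1) tip the balance. Several of these genes also answer to factors other than p53, among them FOXO proteins and the stress factors ATF4 and CHOP.

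The members did not move together. Gadd45g, Plk3 and Bcl2l11 rose in EPS myotubes by 3.57-fold, 5.42-fold and 4.77-fold (edgeR's quasi-likelihood test with Benjamini-Hochberg adjustment, adjusted p = 0.0314, 0.0423 and 0.0353). Among all tested genes, 2.3% were called higher and 0.758% lower. No member was called lower by this test. At an unadjusted p under 0.05, 11 members were higher and 4 lower, against 1705 and 885 of the 13987 tested genes. DESeq2 called 7 members higher (these 3, Plk2, Gadd45a, Tnfrsf10b and Gadd45b) and 1 lower (Ei24), against 4.32% and 1.89% of the genes it gave an adjusted p. Libraries of the same replicate number deviated together, and with that number as a block in edgeR 10 members were higher and 1 lower, against 7.31% and 4.78% of all genes. The 10 were Plk3, Plk2, Bcl2l11, Gadd45g, Mdm2, Gadd45a, Tnfrsf10b, Gadd45b, Zmat3 and Btg2, and the 1 was Ei24. Several of the best-known p53 targets gave no call in these 2 edgeR fits: Cdkn1a and Ccng1 had log2 fold changes of -0.50 and -0.57, and Bax, Bbc3 and Pmaip1 had 0.41, 0.21 and -0.29; other forms of the block called Bax higher and Cdkn1a lower, as given with each gene. The median log2 fold change of the 39 was 0.21, and that of all tested genes was 0.01.

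Depth was 12.6 M to 20.73 M fragments in 7 libraries but 0.354 M in control replicate 2, where 3 fragments, the limit that a count of 0 allows, equal 8.52 CPM (counts per M fragments, M for mega), against 0.139 to 0.241 CPM elsewhere. A principal component analysis separated this shallow library first (68.4% of the variance) and EPS replicates 1 and 2 next (20.2%). The 6 myotube markers with values summed to 12700 to 17800 CPM in EPS and 21200 to 24200 CPM in control; none passed the test, and Ckm, Myh3, Myog and Tnnt3 were lower with the block. Markers of dividing myoblasts summed to 291 to 646 CPM in EPS and 374 to 789 CPM in control, with no call. Macrophage markers summed to 2.63 to 27.7 CPM in EPS and 1.62 to 8.52 CPM in control, with Adgre1 at 0 fragments in every library. The control value of 8.52 CPM equals 3 fragments in the shallow library. Endothelial markers summed to 0.323 to 13.2 CPM in EPS and 0 to 0.472 CPM in control. Both lists were highest in EPS replicate 2 among the EPS libraries. Adipocyte markers reached at most 0.321 CPM and the 3 neuronal markers had no fragment. What part these differences have in the results below was not tested, and in bulk RNA fewer cells of a type and less RNA per cell cannot be told apart.

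The DNA before the transcription start is shown for the 3 members that rose, for Plk2, and for Cdkn1a and Ccng1, the members with a p53 response element in this window. Each sequence is the 250 bases before the most upstream RefSeq start, build GRCm38.p6, read 5′ to 3′ on the gene's strand. They lie at chr13:51846425-51846674 on the plus strand (Gadd45g), chr4:117133964-117134213 on the minus strand (Plk3), chr2:128125788-128126037 on the plus strand (Bcl2l11), chr13:110394794-110395043 on the plus strand (Plk2), chr17:29090729-29090978 on the plus strand (Cdkn1a) and chr11:40755287-40755536 on the minus strand (Ccng1). Capitals mark every match to a searched motif on either strand.
Gadd45g: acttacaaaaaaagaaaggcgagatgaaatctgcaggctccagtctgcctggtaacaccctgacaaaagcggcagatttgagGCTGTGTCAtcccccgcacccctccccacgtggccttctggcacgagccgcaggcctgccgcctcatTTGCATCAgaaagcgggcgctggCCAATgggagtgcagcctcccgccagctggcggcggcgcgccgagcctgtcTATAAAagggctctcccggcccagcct
Plk3: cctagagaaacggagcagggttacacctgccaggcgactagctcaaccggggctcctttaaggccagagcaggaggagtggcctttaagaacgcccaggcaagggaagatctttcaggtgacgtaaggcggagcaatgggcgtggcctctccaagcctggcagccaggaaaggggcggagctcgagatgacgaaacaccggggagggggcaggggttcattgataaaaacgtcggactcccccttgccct
Bcl2l11: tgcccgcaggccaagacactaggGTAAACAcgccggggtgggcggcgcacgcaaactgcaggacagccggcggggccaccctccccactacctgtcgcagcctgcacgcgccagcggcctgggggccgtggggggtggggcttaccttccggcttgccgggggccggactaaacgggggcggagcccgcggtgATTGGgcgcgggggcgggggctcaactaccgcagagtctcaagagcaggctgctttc
Plk2: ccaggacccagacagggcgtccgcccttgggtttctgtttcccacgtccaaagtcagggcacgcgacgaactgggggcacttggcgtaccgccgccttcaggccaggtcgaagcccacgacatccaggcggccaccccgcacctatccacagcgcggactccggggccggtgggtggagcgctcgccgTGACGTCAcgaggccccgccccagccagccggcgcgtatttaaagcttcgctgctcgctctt
Cdkn1a: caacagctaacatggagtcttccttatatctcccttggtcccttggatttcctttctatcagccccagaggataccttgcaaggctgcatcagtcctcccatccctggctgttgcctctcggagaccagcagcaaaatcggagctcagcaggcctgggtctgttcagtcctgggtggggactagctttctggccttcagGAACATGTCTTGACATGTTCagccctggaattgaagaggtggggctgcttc
Ccng1: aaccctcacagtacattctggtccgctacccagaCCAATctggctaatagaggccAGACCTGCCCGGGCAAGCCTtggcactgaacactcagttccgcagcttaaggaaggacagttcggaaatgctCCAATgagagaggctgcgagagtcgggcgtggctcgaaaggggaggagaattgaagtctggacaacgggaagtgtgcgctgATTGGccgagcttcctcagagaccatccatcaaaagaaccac

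Of the 39 members, 33 had an entry in the RefSeq promoter table. The motifs searched were the cAMP response element TGACGTCA, the AP-1 site TGANTCA, the ATF4-CEBP composite TGATGNAA and the antioxidant element TGACNNNGC. Also searched were the heat shock core GAANNTTC, the FOXO site GTAAACA, the CCAAT box, the TATA box TATAAA and the p53 response element. The p53 element was 20 bases without a spacer. Its core C and G positions had to match, and at most 2 other bases could differ. The p53 element stood in 2 of the 33 member windows. It lay at -51 to -32 from the most upstream start of Cdkn1a and at -195 to -176 in Ccng1. Of all 32851 windows, 0.271% held it. Those windows take in every entry of the promoter table, while each member gave only its most upstream one. Gadd45g held the ATF4-CEBP composite at -101 to -94 (3.45% of all windows), an antioxidant element at -168 to -160 (10.2%), a CCAAT box (33.8%) and a TATA box (12.4%). Bcl2l11 held a FOXO site at -227 to -221 (3.17%) and a CCAAT box on the other strand. The FOXO site also stood in Mdm2 and Eda2r, making 3 of 33 windows. The antioxidant element also stood in Ccng2, Eda2r and Trp53, making 4 of 33 windows. The cAMP response element of Plk2, at -62 to -55, had a counterpart in Btg2, Ppm1d and Trp53inp2, making 4 of 33 windows, against 1.55% of all windows. Plk3 held none of these motifs. A match describes letters and is no evidence of binding, and a window without one says nothing about the factor.

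**Figure D1:**
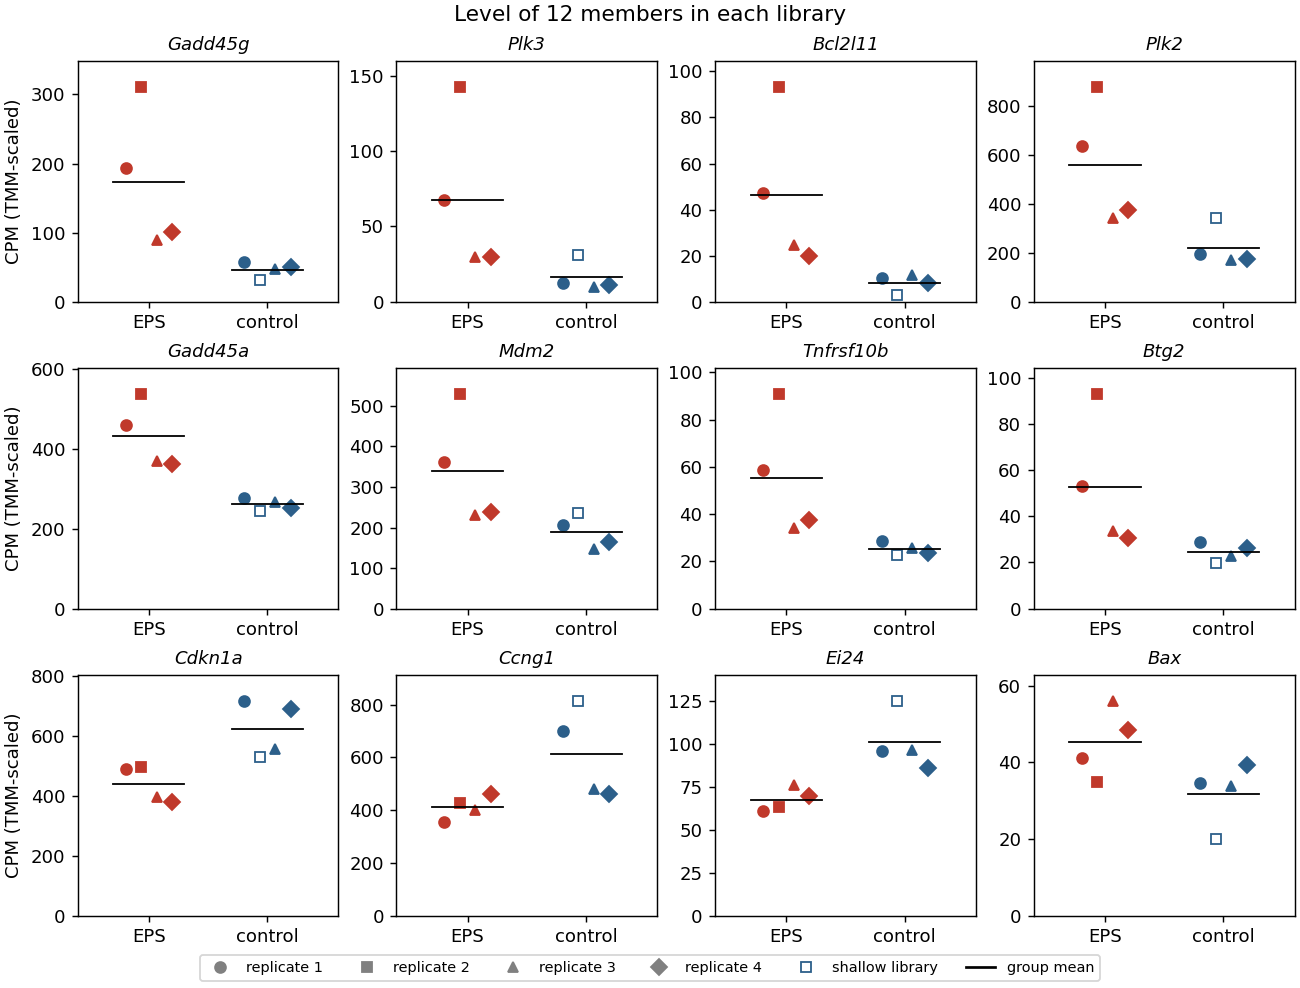
CPM (vertical axes, from 0) of 12 members in each EPS library (red, left) and control library (blue, right), with 1 symbol per replicate number, an open symbol for the shallow control library and a line at the group mean. In the upper 8 panels EPS replicates 1 and 2 lie above EPS replicates 3 and 4, and for Cdkn1a, Ccng1 and Ei24 each EPS library lies below each control library.

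Of p53 and its 3 regulators, none passed the test without the block (1 higher at an unadjusted p under 0.05, 0 by DESeq2), and Mdm2 was higher with it (1 of 4). Trp53 had 71.7, 80.8, 73.7 and 74.9 CPM in EPS replicates 1 to 4, against 58.7, 76.7, 66.8 and 67.5 CPM in control replicates 1 to 4. The groups overlapped through the shallow control library, and the log2 fold change was 0.18 (SE 0.14, adjusted p = 0.521). Mdm2, which marks p53 for degradation and is itself a p53 target, had 361, 529.6, 229.9 and 237 CPM in EPS, against 206, 236, 148 and 164 CPM in control. EPS replicate 3 lay below control replicate 2, and the other 3 EPS libraries lay above every control library. The log2 fold change was 0.87 (SE 0.28, adjusted p = 0.135), and with the block it was 0.77 (SE 0.14, adjusted p = 0.00702). Mdm4, a relative of MDM2 that masks the activation domain of p53, had 64.2, 90.5, 40.5 and 38.7 CPM in EPS, against 46.1, 42.6, 42.3 and 43.1 CPM in control. EPS replicates 1 and 2 lay above all control libraries and EPS replicates 3 and 4 below all of them (adjusted p = 0.437). Ppm1d, a phosphatase that switches off p53 signalling, had 19.2 to 31.8 CPM in EPS and 22.7 to 42.6 CPM in control (log2 fold change -0.04, adjusted p = 0.956; with the block it was 0.05).

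Of the 10 members grouped under growth arrest, stress signalling and repair, 2 rose (median log2 fold change 0.89), against 2.3% of all tested genes. The group was formed by role, not by evidence of p53 control, and was not among the planned results. With the block 7 of 10 were higher, against 7.31%. At an unadjusted p under 0.05, 2 of the 10 were lower in each of these fits, against 885 and 1638 of 13987 genes. The 3 GADD45 genes encode small stress-induced proteins that bind MAP3K4 and cell cycle regulators. Gadd45g (chr13:51846678-51848468, plus strand, mm10) had 194, 311, 89.1 and 101 CPM in EPS replicates 1 to 4, against 57.5, 31.3, 46.99 and 50.2 CPM in control replicates 1 to 4. Each EPS library lay above each control library, with EPS replicates 1 and 2 highest. On the log2 scale the fold change was 1.83 (SE 0.38, adjusted p = 0.0314), and 1.49 with the block (SE 0.27, adjusted p = 0.00584). Gadd45a, the member with the highest level per length in EPS, had 308 ± 81.4 FPKM in EPS and 187 ± 18.1 FPKM in control (SD, n = 4 each); FPKM are deposited fragments per kilobase and M fragments. In CPM it had 459.5, 537, 368 and 362 CPM in EPS, against 277, 244, 268 and 252 CPM in control, with all EPS libraries above all control libraries. The log2 fold change of 0.73 (SE 0.17) had an adjusted p of 0.052, and 0.69 with the block had one of 0.0134. Gadd45b had 71.8, 115, 34.8 and 48.3 CPM in EPS, against 36.9, 25.6, 29.3 and 27.9 CPM in control, so that EPS replicate 3 alone lay within the control range (adjusted p = 0.101, and 0.0239 with the block).

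The polo-like kinases PLK2 and PLK3 are kinases of stress and immediate-early responses. Plk3 (chr4:117128655-117133963, minus strand, mm10) had 67.4, 143, 30.01 and 29.5 CPM in EPS replicates 1 to 4, against 12.4, 31.3, 9.996 and 10.9 CPM in control replicates 1 to 4. The high control value is the shallow library, where it rests on 11 fragments; EPS replicates 3 and 4 lay below it, and all EPS libraries lay above the 3 deep control libraries. This gave a log2 fold change of 2.44 (SE 0.55, adjusted p = 0.0423). With the block it was 1.87 (SE 0.19, adjusted p = 2.82e-04), the smallest adjusted p of the 39 members in that fit. Plk2 had 636, 880.4, 343.5 and 375 CPM in EPS, against 195, 343.8, 173 and 173 CPM in control. Here too the shallow library, with 121 fragments, was the one control library above an EPS library. The log2 fold change of 1.37 (SE 0.34) missed the threshold at an adjusted p of 0.0601; with the block it was 1.29 (adjusted p = 6.49e-04), and without control replicate 2 it was 1.62 (adjusted p = 0.042).

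The other genes of this group went different ways. Btg2, an antiproliferative and immediate-early gene, had 53.3, 93.1, 33.7 and 30.6 CPM in EPS, against 28.9, 19.9, 22.98 and 26.3 CPM in control, with no overlap between the groups (adjusted p = 0.129, and 0.0476 with the block). Zmat3, an RNA-binding p53 target, had 35.5 to 80.5 CPM in EPS and 27 to 44.4 CPM in control (adjusted p = 0.209, and 0.0459 with the block). Cdkn1a encodes p21, the inhibitor of cyclin-dependent kinases that also keeps differentiating myotubes out of the cell cycle. It had 488, 495, 397 and 379 CPM in EPS replicates 1 to 4, against 717, 528, 555 and 689 CPM in control replicates 1 to 4, so that every EPS library lay below every control library. Its log2 fold change was -0.50 (SE 0.18, adjusted p = 0.161), and -0.51 with the block (adjusted p = 0.0525). With the block and without pair 2, which holds the shallow library, it was -0.64 and past the threshold (adjusted p = 0.0059), as it was with the block and a length offset (-0.51, adjusted p = 0.0436). Per length Cdkn1a was the most abundant member in control, with 214 ± 33.95 FPKM in EPS and 319.7 ± 42.3 FPKM in control (SD, n = 4 each). Ccng1, a cyclin G that recruits a phosphatase to MDM2, had 356, 427, 402 and 460.5 CPM in EPS, against 700.5, 815, 481 and 461.4 CPM in control. The groups did not overlap, but EPS replicate 4 and control replicate 4 were nearly level (log2 fold change -0.57, SE 0.21, adjusted p = 0.185, and 0.0841 with the block). Its relative Ccng2, a FOXO target, had 52.4 to 67.5 CPM in EPS and 44.4 to 77.7 CPM in control (adjusted p = 0.89).

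**Figure D2:**
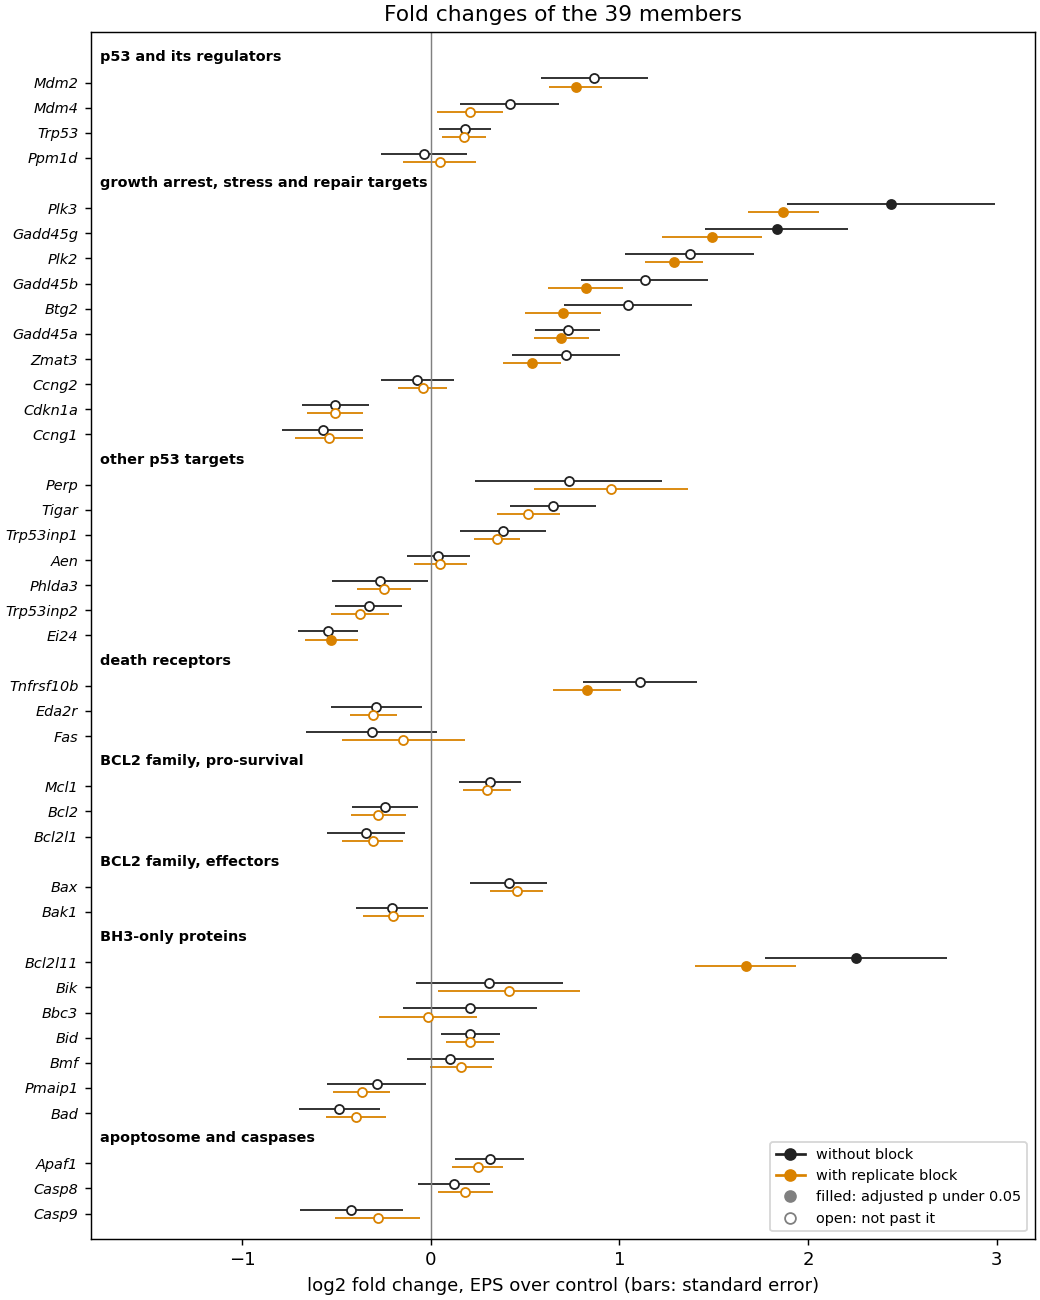
Log2 fold change (EPS over control, horizontal axis) of the 39 members, grouped by role, with 1 standard error; black without and orange with the replicate block, filled symbols past an adjusted p of 0.05. The growth arrest and stress group holds 2 filled black and 7 filled orange symbols, and Bcl2l11 is the only gene with a filled symbol in the BCL2 family and apoptosome groups.

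Of the next 7 members, p53 targets with other roles, edgeR called none without the block. At an unadjusted p under 0.05, 1 was higher and 1 lower. Ei24 was lower with the block and by DESeq2. Ei24, a membrane protein of the endoplasmic reticulum that acts in autophagy, had 60.8, 63.2, 76.2 and 69.8 CPM in EPS, against 95.99, 125, 96.3 and 85.6 CPM in control. Each EPS library lay below each control library. A log2 fold change of -0.54 (SE 0.16) had an adjusted p of 0.0968, and -0.53 with the block had one of 0.037. Tigar, a phosphatase that lowers glycolytic flux, had 12.8 to 22.1 CPM in EPS and 9.29 to 14.2 CPM in control, higher in EPS in each of the 4 pairs (adjusted p = 0.157). The autophagy and stress regulator Trp53inp1 had 74.8 to 117 CPM in EPS and 53.6 to 102 CPM in control, and its relative Trp53inp2 had 116 to 177 CPM in EPS and 151 to 185 CPM in control. With the block and without pair 2, Trp53inp1 was higher (log2 fold change 0.37, adjusted p = 0.0301) and Trp53inp2 lower (-0.53, adjusted p = 0.0068). Phlda3, an inhibitor of AKT, had 111, 82.4, 153 and 164 CPM in EPS, against 170.0, 90.9, 161 and 177 CPM in control, lower in EPS in all 4 pairs with overlapping groups (adjusted p = 0.623). The nuclease gene Aen had 82.8 to 94.5 CPM in EPS and 73.9 to 114 CPM in control, and Perp, a p53 target of cell junctions, was near the floor at 0.401 to 1.501 CPM in EPS and 0 to 0.921 CPM in control.

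Of the 3 death receptors, edgeR called none without the block (1 higher at an unadjusted p under 0.05); Tnfrsf10b was higher with the block and by DESeq2. It encodes the mouse receptor of the death ligand TRAIL and had 58.7, 90.9, 34.05 and 37.5 CPM in EPS, against 28.7, 22.7, 25.5 and 23.5 CPM in control. The groups did not overlap. The log2 fold change was 1.11 (SE 0.30, adjusted p = 0.0784), and 0.83 with the block (adjusted p = 0.0147). Fas, the receptor of FAS ligand, was low at 3.53 to 8.03 CPM in EPS and 4.06 to 11.4 CPM in control (log2 fold change -0.31, adjusted p = 0.677). Eda2r, the receptor of ectodysplasin A2 and a p53 target, had 389.6, 441, 244 and 292 CPM in EPS, against 443, 559.7, 330.0 and 349.6 CPM in control. It was lower in EPS in each pair, with overlapping groups (adjusted p = 0.567, and 0.145 with the block).

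In the BCL2 family Bcl2l11, 1 of 7 BH3-only members, was the gene called without the block and with it on all 4 pairs. It encodes BIM, which binds the pro-survival proteins and can activate BAX. Bcl2l11 (chr2:128126038-128162547, plus strand, mm10) had 47.1, 93.3, 24.7 and 19.99 CPM in EPS replicates 1 to 4, against 10.46, 2.84, 11.6 and 8.27 CPM in control replicates 1 to 4, the lowest of these being 1 fragment in the shallow library. All EPS libraries lay above all control libraries, with EPS replicates 1 and 2 highest. EPS over control, the log2 fold change was 2.25 (SE 0.48, adjusted p = 0.0353), and 1.67 with the block (SE 0.27, adjusted p = 0.00345). Per length Bcl2l11 had 12.6 ± 9.02 FPKM in EPS and 2.33 ± 0.734 FPKM in control (SD, n = 4 each), which placed it at rank 3 of 7 BH3-only genes in EPS and at rank 6 of 7 in control. In EPS the mean ± SD of its neighbours in that order overlapped with its own. Pmaip1 had 27.7 ± 10.6 FPKM in EPS and 32.95 ± 3.51 FPKM in control (SD, n = 4 each). Bad had 12.1 ± 2.67 FPKM in EPS and 21.5 ± 9.95 FPKM in control (SD, n = 4 each). In control Bcl2l11 overlapped in this way with Bmf (2.56 ± 0.557 FPKM) and Bbc3 (3.26 ± 2.28 FPKM) above it (SD, n = 4 each). It did not overlap with Bik below it (0.62 ± 0.435 FPKM in control, SD, n = 4).

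The other 6 BH3-only genes gave no call with or without the block. At an unadjusted p under 0.05, 1 was lower without the block (Bad) and 2 with it (Bad and Pmaip1). Of the 13987 tested genes, 885 and 1638 were lower in these fits. Bbc3 (PUMA) had 11.8, 21.7, 14.6 and 10.9 CPM in EPS, against 11.3, 0, 15.4 and 14.7 CPM in control, with no fragment in the shallow library (adjusted p = 0.802; its log2 fold change was 0.21 without and -0.01 with the block). Pmaip1 (NOXA) had 65.04, 97.3, 49.99 and 52.1 CPM in EPS, against 60.5, 122, 78.3 and 77.6 CPM in control. It was higher in EPS in pair 1 and lower in the other pairs. Its log2 fold change was -0.29 (SE 0.26, adjusted p = 0.606), and -0.37 with the block (SE 0.15, adjusted p = 0.146). Bid, which caspase 8 cleaves into its active form, had 67.7 to 77.3 CPM in EPS and 51.1 to 79.5 CPM in control. Bad, which AKT holds inactive by phosphorylation, had 10.7 to 19.02 CPM in EPS and 20.2 to 23.7 CPM in control, with every EPS library below every control library (log2 fold change -0.48, SE 0.21, adjusted p = 0.261). Bmf, a BH3-only sensor tied to the cytoskeleton, had 12.1 to 17.2 CPM in EPS and 5.68 to 17.1 CPM in control, and Bik had 0.722 to 1.08 CPM in EPS and 0 to 0.921 CPM in control.

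None of the 3 pro-survival and 2 effector genes was called without the block or with it on all 4 pairs (0 at an unadjusted p under 0.05 without it and 2 higher with it, 0 by DESeq2). Mcl1, the most abundant pro-survival gene per length, had 147 ± 28.5 FPKM in EPS and 115 ± 8.34 FPKM in control (SD, n = 4 each). In CPM it had 371, 484, 354 and 374 CPM in EPS, against 299.8, 361, 325 and 292 CPM in control, higher in EPS in each pair (log2 fold change 0.32, SE 0.16, adjusted p = 0.342). Bcl2l1 had 95.5, 87.4, 105 and 102 CPM in EPS, against 162, 71.03, 124 and 123 CPM in control, where the shallow library alone lay below the EPS range (log2 fold change -0.34, adjusted p = 0.418; -0.43 with the block and without pair 2, adjusted p = 0.0429). Bcl2 had 15.4 to 19.97 CPM in EPS and 17.6 to 25.6 CPM in control, lower in EPS in each pair (adjusted p = 0.506). The effector Bax had 41.2, 34.97, 56.1 and 48.5 CPM in EPS, against 34.5, 19.9, 33.8 and 39.2 CPM in control, higher in EPS in each pair with overlapping groups (log2 fold change 0.41, adjusted p = 0.31, and 0.0616 with the block). Bax was past the threshold with the block and without pair 2 (log2 fold change 0.42, adjusted p = 0.0468) and with the block and a length offset (0.51, adjusted p = 0.0288). The other effector, Bak1, had 82.96, 73.1, 122 and 118 CPM in EPS, against 119, 116, 117 and 105 CPM in control, so that EPS replicates 1 and 2 lay below all control libraries and EPS replicate 3 above them (adjusted p = 0.613).

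The apoptosome and its caspases gave no call in either fit (0 at an unadjusted p under 0.05 in both, 0 by DESeq2). Apaf1, the scaffold that cytochrome c assembles, had 24.3 to 35.8 CPM in EPS and 20.6 to 31.3 CPM in control, higher in EPS in each pair (adjusted p = 0.4). Casp9, the caspase it activates, had 9.14 to 15.1 CPM in EPS and 12.5 to 34.1 CPM in control, and Casp8, which death receptors activate, had 15.2 to 23.04 CPM in EPS and 16.04 to 19.5 CPM in control (adjusted p = 0.451 and 0.777).

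**Figure D3:**
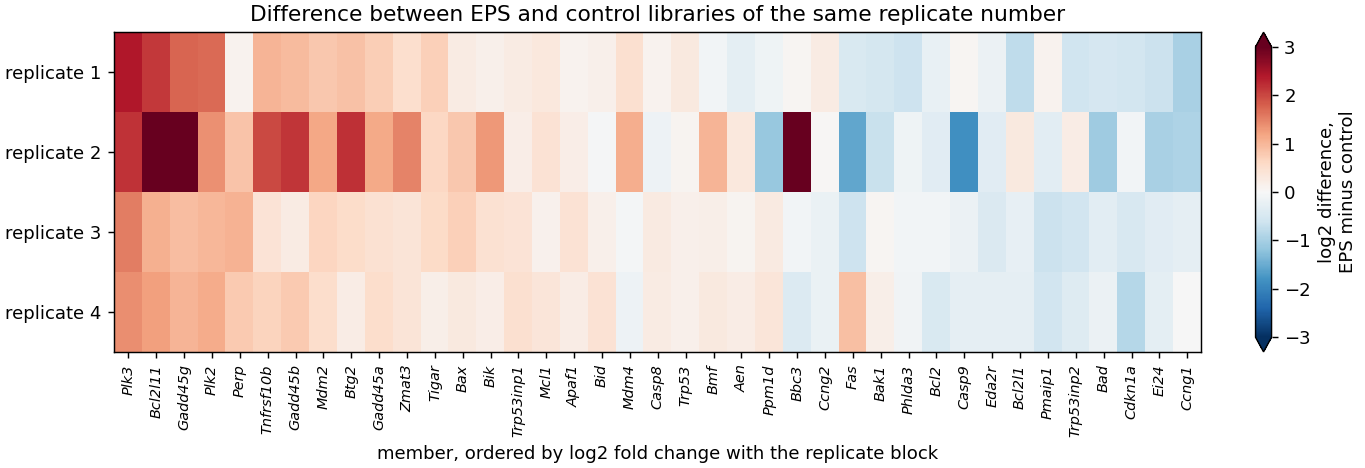
Log2 difference in CPM (colour, EPS minus control, pseudocount 0.5) between the libraries of the same replicate number (rows) for the 39 members (columns), ordered by the fold change with the replicate block. Plk3, Bcl2l11, Gadd45g and Plk2 are positive in all 4 rows and larger in pairs 1 and 2, and Bbc3, Casp9 and Fas stand out in the row of pair 2, which holds the shallow library.

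Across the 39 members, 18 were higher and 7 lower in EPS in all 4 pairs of the same replicate number, against 22% and 15.7% of all tested genes. Perp and Bik are among the 18, but had 0 fragments in control replicate 2, where the limit is 8.52 CPM. EPS replicate 2 had 0.401 and 0.722 CPM of them, so their sign in pair 2 is not resolved. The share over all tested genes carries the same limit. All EPS libraries lay above all control libraries for 5 members (Btg2, Gadd45a, Gadd45g, Tnfrsf10b and Bcl2l11) and below them for 4 (Cdkn1a, Ccng1, Ei24 and Bad), against 9.32% and 4.83% of all tested genes. EPS replicates 1 and 2 both lay above EPS replicates 3 and 4 in 17 members and below them in 12, against 34.2% and 37.8% of all tested genes. The mean log2 CPM of EPS replicates 1 and 2 exceeded that of EPS replicates 3 and 4 by 1.71 for Plk3, 1.56 for Bcl2l11, 1.36 for Gadd45g and 1.06 for Plk2 (pseudocount 0.5 CPM). With EPS replicates 1 and 2 left out together, a choice made after seeing the data, Gadd45g, Plk3 and Bcl2l11 had log2 fold changes of 0.92, 1.32 and 1.18 and stayed past the threshold (adjusted p = 0.0217, 0.0224 and 0.0274). No other member was called in that fit. Of those called with the block, Plk2, Gadd45a, Tnfrsf10b and Gadd45b had 0.76, 0.47, 0.47 and 0.41 there. Mdm2, Btg2, Zmat3 and Ei24 had 0.34, 0.31, 0.15 and -0.41 (adjusted p 0.152 to 0.806 from Plk2 to Ei24). Without EPS replicate 1, or without any 1 of control replicates 1, 2, 3 and 4, none of Gadd45g, Plk3 and Bcl2l11 passed (adjusted p 0.0518 to 0.176). Without EPS replicate 2, 3 or 4 all 3 did (adjusted p 0.0124 to 0.0277). EPS replicate 2 alone moved the size of Plk3 and Bcl2l11 by over 1.5 times, since without it their log2 fold changes were 1.80 and 1.64. With the block and without pair 2, also chosen after seeing the data, 12 members were higher and 4 lower, against 9.1% and 8.23% of all genes. These 16 included all 11 members called with the block on all pairs, each in the same direction.

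Gene length moved with the libraries. Deviations of log2 CPM correlated with log2 exonic length across genes at 0.169, 0.208, -0.279 and -0.243 in EPS replicates 1 to 4, and between -0.179 and 0.0982 in control (genes are not independent replicates). With a length offset per library the log2 fold changes of Gadd45g, Plk3 and Bcl2l11 were 2.02, 2.56 and 2.10 (adjusted p = 0.0358, 0.0419 and 0.0257). Exons of Bad, Bak1, Bid and Gadd45a overlap a gene on the opposite strand over 17.7% to 20.5% of their length (Gpr137, Ggnbp1, Bcl2l13 and E230016M11Rik). Whether counting used the strand is not stated in the labels, so their fragments may include some of the partner gene.

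Other genes of the pathway were read from 5 further lists. Their counts stand beside 2.3% of all tested genes called higher and 0.758% lower, or 7.31% and 4.78% with the block. Of 13 tested regulators and relatives of p53, Trp63, the relative of p53 best known from epithelia, was the 1 called gene. It fell to 16.8, 19.9, 29.8 and 37.4 CPM in EPS, against 73.2, 76.7, 87.2 and 88.5 CPM in control (log2 fold change -1.65, SE 0.25, adjusted p = 0.00694). The groups did not overlap, and EPS replicates 1 and 2 were lowest. With the block the DNA damage kinases Chek1 and Atm were higher as well, with log2 fold changes of 1.05 and 0.47 (adjusted p = 0.0154 and 0.0374). Cdkn2a, which encodes the MDM2 inhibitor ARF, had no fragment in any library, which allows up to the 3-fragment limits given above, and Trp73 had 1 fragment in all. Of 19 tested further p53 targets, 3 rose, and with the block 4 were higher and 2 lower. Ephx1, an epoxide hydrolase, had 237, 275, 251 and 233 CPM in EPS, against 93.9, 136, 86.7 and 71.6 CPM in control (log2 fold change 1.41, SE 0.20, adjusted p = 0.00485). Gdf15, a secreted stress cytokine that is also a target of ATF4, had 47.2, 83.7, 23.8 and 23.2 CPM in EPS, against 3.09, 5.68, 3.7 and 2.58 CPM in control (log2 fold change 3.80, adjusted p = 0.00304). Sesn2, a sestrin that restrains mTORC1 and another ATF4 target, had 175, 379.5, 55.9 and 58.9 CPM in EPS, against 25.8, 28.4, 14.9 and 15.6 CPM in control (log2 fold change 3.09, adjusted p = 0.0285). In both genes the groups did not overlap and EPS replicates 1 and 2 were highest, replicate 2 most. The log2 fold change of Sesn2 was 2.31 without EPS replicate 2 and 2.39 with the block, and without EPS replicates 1 and 2 together it was 1.57 for Sesn2 and 2.89 for Gdf15 (adjusted p = 0.0078 and 1.34e-04). Sesn2 was not called without EPS replicate 1 or without any 1 of the 4 control libraries (adjusted p 0.0578 to 0.127). The genes added by the block were Pidd1, which was higher (adjusted p = 0.0172), and Cd82 and Thbs1, which were lower (adjusted p = 0.0128 and 0.0253).

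Of 14 tested death receptors and adaptors, 2 rose. Mlkl, the executioner of necroptosis, had 43.9, 38.4, 27.7 and 26.96 CPM in EPS, against 10.02, 2.84, 13.2 and 12.5 CPM in control (log2 fold change 1.60, SE 0.26, adjusted p = 0.00995). Tnfrsf1a, a TNF receptor with a death domain, had 78.4, 67.6, 68.6 and 67.9 CPM in EPS, against 48.6, 25.6, 39.5 and 41.5 CPM in control (log2 fold change 0.79, SE 0.17, adjusted p = 0.0368). In both genes all EPS libraries lay above all control libraries, and the EPS libraries of Tnfrsf1a lay close together. Tnfrsf1a was not called without EPS replicate 1, 3 or 4 or without control replicate 1, 3 or 4 (adjusted p 0.0578 to 0.167), and Mlkl was not called without control replicate 1 (adjusted p = 0.062). With the block Tnfrsf21, another receptor with a death domain, was also higher (adjusted p = 0.0476). The ligand genes Fasl, Tnfsf10 and Tnf were too low to be tested. Of 18 tested caspases and caspase regulators edgeR called 0 without the block (0 by DESeq2). At an unadjusted p under 0.05, 3 were higher and 1 lower, against 1705 and 885 of the 13987 tested genes. With the block 1 was called, the mitochondrial protease Htra2, which was higher (log2 fold change 0.44, adjusted p = 0.0495). Of 6 tested further BCL2 relatives edgeR called 0 with and without the block (0 at an unadjusted p under 0.05 in both, 0 by DESeq2). Without the block all 6 had a negative log2 fold change (median -0.21), against 6865 of the 13987 tested genes. Leaving out EPS replicates 1 and 2 together made 2 of the 6 positive. The block without pair 2 made 1 positive, as did leaving out EPS replicate 1, EPS replicate 2 or control replicate 3.

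**Figure D4:**
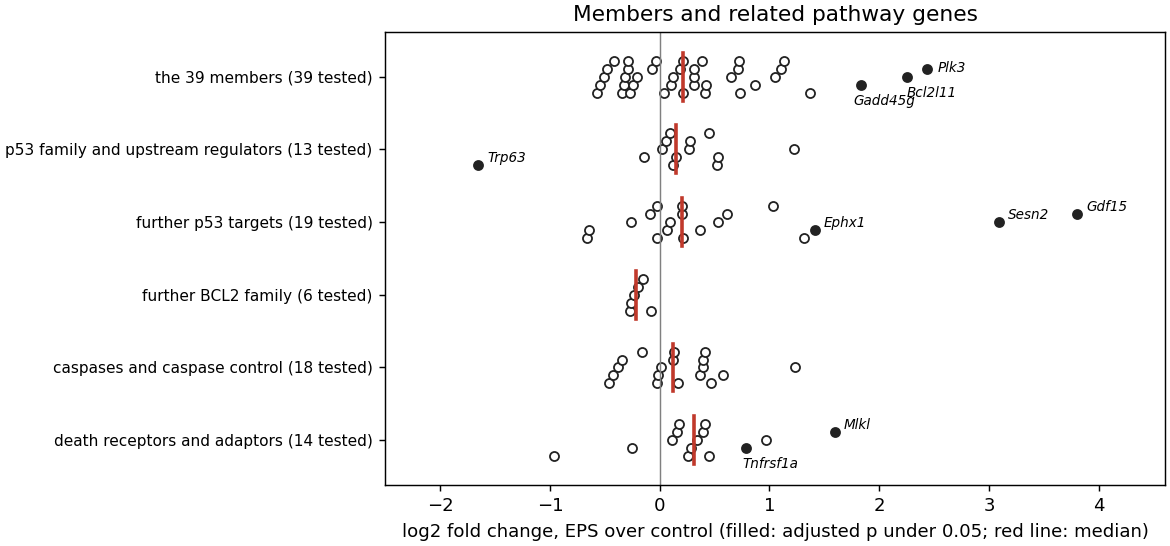
Log2 fold change (EPS over control, horizontal axis, no block) of the 39 members and of the tested genes of 5 related lists, 1 symbol per gene, filled past an adjusted p of 0.05, with the median as a red line. Medians lie between -0.21 and 0.31, and Trp63 is the one filled symbol left of 0.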

How the data were processed

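The 16 GEO samples are 8 libraries in 2 lanes each (stranded total RNA kit, per the labels). The submitters' processing notes list STAR 2.5.1, Cufflinks, Cuffdiff 2.2.1 and mm10. The deposited table holds, per the file headers, estimated counts of fragments per gene and library, unscaled, and FPKM. Of the estimated counts above 0, 93.3% were whole, and all were rounded here; FPKM was used only for levels per length. The 46 genes that the table marks as skipped were left out, none of them a member. GENCODE gene models for mm10 supplied symbols and positions (48051 identifiers matched). Counts were filtered (filterByExpr, minimum count 10, minimum total 15), scaled by TMM and fitted with edgeR 4.0.16 in R 4.3.3 on all 8 libraries with group as the one term. Calls needed an adjusted p under 0.05 over 13987 genes. An SE is the log2 fold change divided by the root of its F value. CPM use TMM-scaled totals.

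Both groups carry replicate numbers 1 to 4, whose meaning the labels leave out. Deviations from group means, taken over all tested genes, had correlations of 0.3, 0.214, 0.286 and 0.297 in same-numbered libraries. EPS replicate 3 with control replicate 4 gave 0.253 and EPS replicate 4 with control replicate 3 gave 0.231, so replicates 3 and 4 are not told apart by number; the other different-numbered combinations gave -0.289 to 0.00557. Every same-numbered correlation was over 0.1, so the numbers were taken as pairs and the blocked value is printed where it changes a call. Alternatives were DESeq2 1.42.0, its size factors, no filter, the block, a length offset, both together, and each library left out; 2 more were chosen after seeing the data. Limits for a count of 0 cover counting error only. All members are named, and from each related list up to 4 called genes with the smallest adjusted p; genes called with the block alone were named after their values were seen. The members and lists were chosen with earlier results of these data known.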

Additional observations from a re-analysis of the deposited data

Results flagged for a closer look

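Among 78 groups of 4 CPM values (39 members in EPS and in control), 6 had a library far from the other 3 relative to the range of the group; chance gives about 1 in 20. EPS replicate 2 had 177 CPM of Trp53inp2 and 484 CPM of Mcl1, where the other EPS libraries had 116 to 124 and 354 to 374 CPM. EPS replicate 3 had 82.8 CPM of Aen, where the other EPS libraries had 92.6 to 94.5 CPM. Control replicate 2, the shallow library, had 42.6 CPM of Ppm1d, 344 CPM of Plk2 and 31.3 CPM of Plk3, where the other control libraries had 22.7 to 24.7, 173 to 195 and 9.996 to 12.4 CPM. Those values of control replicate 2 rest on 15, 121 and 11 fragments.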

How the results depend on the processing

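Of the 39 members, 32 kept the sign of their log2 fold change in all 16 alternatives; of 624 single values, 540 kept sign and side of the threshold, 46 newly passed it, 15 no longer passed it and 23 changed sign. The cause of these shifts was not tested. The block with a length offset called Bax higher (adjusted p = 0.0288) and Cdkn1a lower (adjusted p = 0.0436), calls that the block alone did not give. Gadd45g, Plk3 and Bcl2l11 ranged over 0.92 to 2.02, 1.32 to 2.66 and 1.18 to 2.48.

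Members called higher numbered 3 without and 10 with the replicate block, 11 with the block and a length offset, 12 with the block without pair 2, 7 by DESeq2, 5 with no filter, 4 with a length offset (Plk2 added), and 0 to 6 with 1 library left out; members called lower numbered 0 without and 1 with the block, 2, 4 and 1 in the next 3 settings. Of all tested genes, 322 were higher and 106 lower; these counts were 1023 and 668 with the block, 1057 and 747 with the block and a length offset, 1290 and 1167 with the block without pair 2, and 659 and 288 by DESeq2. They were 447 and 162 with no filter, and 378 and 163 with a length offset. With 1 library left out 92 to 427 were higher and 22 to 167 lower.

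In the related lists, regulators of p53 had 2 higher genes under each of the 3 block fits. Further p53 targets had 5 higher with the block without pair 2; they had 2 lower in each block fit, 1 lower by DESeq2 and with a length offset, and 2 to 3 higher and 0 to 1 lower with 1 library left out. Caspases and their regulators had 1 higher in each block fit. Death receptors and adaptors had 1 higher with no filter and without EPS replicates 1 and 2, 4 higher and 1 lower with the block without pair 2, and 0 to 2 higher with 1 library left out.

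Signs changed in 7 members. On all libraries without the block, Mdm4 had 0.419 and Ppm1d -0.0364. Leaving out EPS replicates 1 and 2 together gave log2 fold changes of -0.154 for Mdm4, 0.253 for Ppm1d, 0.0198 for Ccng2, 0.00858 for Phlda3, -0.0177 for Aen, 0.0643 for Bak1 and -0.0584 for Bbc3. Ppm1d had 0.0481 with the block, 0.0589 with a length offset added and 0.164 without pair 2; Bbc3 had -0.0132 with the block and -0.159 without pair 2; Aen had -0.00853 with the block without pair 2 and -0.00862 with no filter. With 1 library left out, Ppm1d ranged from -0.188 to 0.0887, Ccng2 from -0.233 to 0.0345, Aen from -0.0361 to 0.21 and Bbc3 from -0.0668 to 0.339. Depth limits control replicate 2, where Perp, Bbc3 and Bik had 0 fragments.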
